A study of Mus musculus with 8 samples.

Results

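A set of 10 genes of bone morphogenetic protein (BMP) signalling, taken by symbol through their Ensembl IDs from 21517 genes listed in the tables, were followed in mouse embryos with and without knockdown of Smarca5 (also called Snf2h), an ISWI-family chromatin remodelling ATPase. They are the ligand genes Bmp2, Bmp4 and Bmp7, the receptor genes Bmpr1a and Bmpr2, the signal transducers Smad1 and Smad5, and the Id genes Id1, Id2 and Id3. All 10 were present in both tables. Polyadenylated RNA was sequenced from pools of 20 whole embryos. The groups were morulae labelled NC, morulae labelled Snf2h_KD, blastocysts labelled NC and blastocysts labelled Snf2h_KD, with 2 libraries each and 8 in all; they are called NC and KD below. The series names embryonic days 3.75 and 4.25 without tying a day to a stage, and the strain, the way the knockdown was done and what NC stands for are not given in the sources used here. A pool mixes all cell types of the embryo, so fewer cells of a type and less RNA per cell cannot be told apart.

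BMP ligands are secreted dimers that bring type I receptors such as BMPR1A together with type II receptors such as BMPR2. The type I receptor then phosphorylates SMAD1 and SMAD5, which enter the nucleus with SMAD4 and turn on target genes, the Id genes being the best known. ID proteins lack a DNA-binding domain and block basic helix-loop-helix factors by binding E proteins. In the implanting mouse embryo, BMP4 comes from the epiblast and later the extraembryonic ectoderm, and BMP2 from the visceral endoderm.

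The set was chosen by measured values: Bmp2 and Bmp7 were higher and Id3 lower in KD embryos in earlier results from the same 8 libraries. The differences between KD and NC are therefore given for the 10 genes as a description, without a test. The unit throughout is normalized abundance, a depth-scaled signal per gene that was scaled within a stage and not between stages. Low values came in even steps of 0.811 to 1.36 units, taken as the worth of 1 read, which puts the libraries at an estimated 13958000 to 23306300 reads. The knockdown was visible in every library: Smarca5 was 9678 and 9760 in NC against 501 and 470 in KD morulae, and 7000 and 8283 against 906 and 855 in blastocysts.

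Among the ligands, Bmp2 and Bmp7 were higher in both KD libraries than in both NC libraries at both stages. Bmp2 (ENSMUSG00000027358; mm10 chromosome 2, 133552159 to 133562885, plus strand) measured 11.1 and 19.6 in NC morulae and 54.8 and 85.7 in KD morulae. In blastocysts it measured 5.43 and 2.43 in NC and 40.2 and 65.5 in KD. The groups were well apart at both stages, with KD minus NC differences of 2.14 and 3.48 on the log2(value + 1) scale. The NC values are small: they correspond to an estimated 12 and 19 reads in morulae and 4 and 3 reads in blastocysts. Adding 10 instead of 1 before taking logs therefore reduced the blastocyst difference to 2.15.

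Bmp7 (ENSMUSG00000008999; chromosome 2, 172868012 to 172940321, minus strand) had the same order of groups. It was 13.2 and 18.6 in NC and 60.2 and 51.3 in KD morulae, a log2 difference of 1.76. In blastocysts it was 4.07 and 3.24 in NC, an estimated 3 and 4 reads, and 32.4 and 17.7 in KD, a log2 difference of 2.43, or 1.33 with 10 added. In blastocysts Bmp2 and Bmp7 reached the minimum mean of 10 used for testing only through their KD libraries.

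Bmp4 (ENSMUSG00000021835; chromosome 14, 46383520 to 46390669, minus strand) did not share this order. In morulae it was near the limit of detection, at 7.44 and 2.38 in NC and 3.35 and 1.89 in KD, and its mean stayed below 10. In blastocysts it was 39.8 and 256 in NC and 14.0 and 61.1 in KD. The blastocyst groups overlapped, and within each group the library numbered 2 was several times the library numbered 1. The log2 difference of -1.75 was -3.08 to -0.42 when single libraries were left out.

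**Figure D1:**
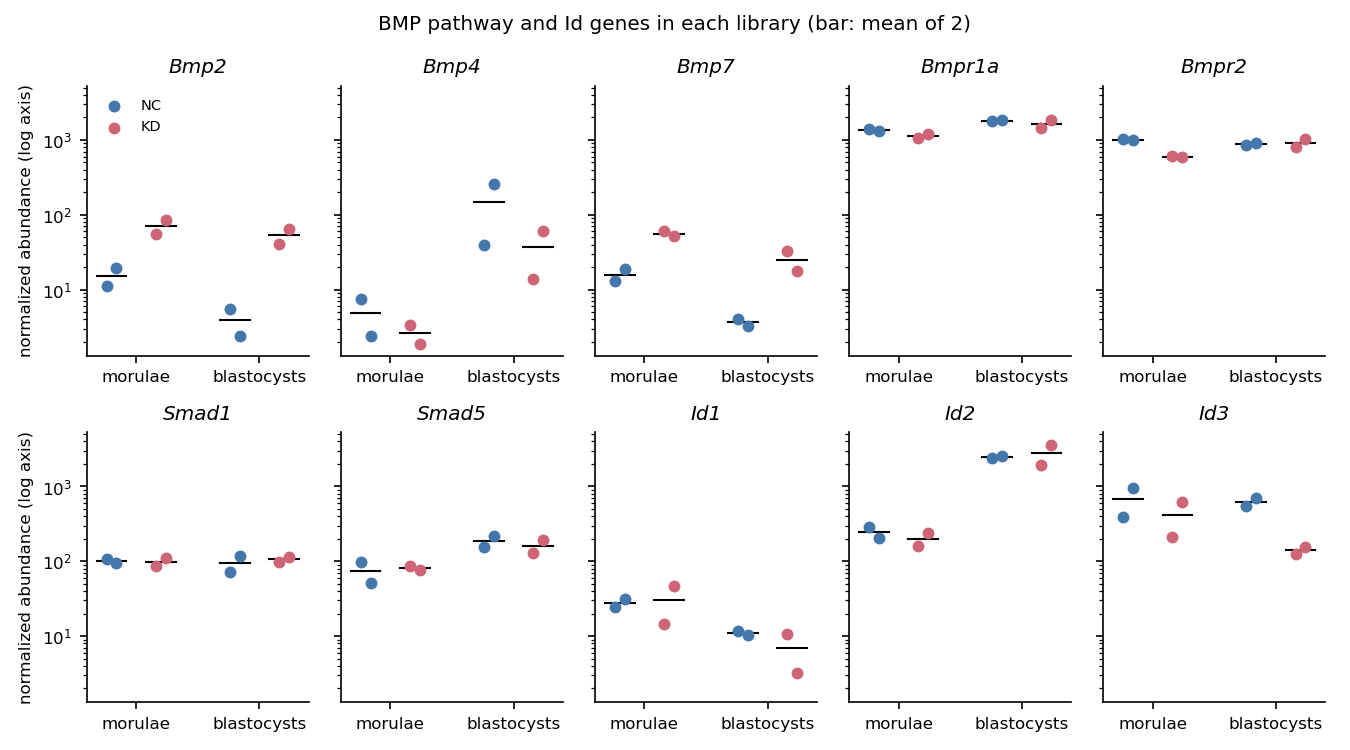
Normalized abundance (log axis) of the 10 genes in each of the 8 libraries, NC in blue and KD in red, with a bar at the mean of 2 libraries. The KD points of Bmp2 and Bmp7 lie above the NC points at both stages, those of Bmpr1a and Bmpr2 lie below in morulae, and those of Id3 lie below in blastocysts.

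The receptor genes were lower in KD morulae and overlapped in blastocysts. Bmpr2, the type II receptor (ENSMUSG00000067336; chromosome 1, 59763400 to 59879014, plus strand), was 1025 and 990 in NC and 612 and 588 in KD morulae. Both KD libraries were below both NC libraries, with a mean of 1008 ± 24.7 (SD, n = 2) against 600 ± 16.6 and a log2 difference of -0.75. In blastocysts Bmpr2 was 855 and 913 in NC and 811 and 1021 in KD, and the groups overlapped. Bmpr1a, the type I receptor also called ALK3 (ENSMUSG00000021796; chromosome 14, 34410734 to 34503341, minus strand), was 1398 and 1326 in NC and 1072 and 1207 in KD morulae, without overlap and with a log2 difference of -0.26. In blastocysts it was 1779 and 1835 in NC and 1426 and 1824 in KD, which overlapped.

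The SMAD genes, which carry the signal from receptor to nucleus, overlapped between NC and KD at both stages. Smad1 (ENSMUSG00000031681; chromosome 8, 79338395 to 79399518, minus strand) was 107 and 95.9 in NC and 85.8 and 112 in KD morulae, and 70.8 and 119 against 99.1 and 114 in blastocysts. Smad5 (ENSMUSG00000021540; chromosome 13, 56703010 to 56742377, plus strand) was 97.9 and 51.9 against 86.0 and 75.6 in morulae and 154 and 219 against 128 and 190 in blastocysts. When single libraries were left out the log2 difference ranged over both signs, from -0.28 to 0.63 for Smad5 in morulae and from -0.16 to 0.58 for Smad1 in blastocysts.

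Among the Id genes the KD and NC groups stood apart in a single case, Id3 in blastocysts. Id3 (ENSMUSG00000007872; chromosome 4, 136143497 to 136145755, plus strand) was 541 and 702 in NC and 124 and 155 in KD blastocysts. That is 622 ± 114 against 139 ± 21.7 (SD, n = 2), a log2 difference of -2.15, which ranged from -2.33 to -1.96 when single libraries were left out. In morulae Id3 was 396 and 959 in NC and 213 and 612 in KD, so the groups overlapped, and in each group the library numbered 2 was the higher. The morula difference of -0.77 was -1.53 without KD replicate 2 and -0.01 without KD replicate 1.

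Id2 (ENSMUSG00000020644; chromosome 12, 25093799 to 25097140, minus strand), which is enriched in the trophectoderm, was 286 and 204 in NC and 162 and 238 in KD morulae. In blastocysts it was 2370 and 2524 in NC and 1946 and 3607 in KD. Both comparisons overlapped, and the KD blastocyst libraries lay on either side of the NC libraries. Id1 (ENSMUSG00000042745; chromosome 2, 152736251 to 152737410, plus strand) was low, at 24.8 and 31.0 in NC and 14.6 and 46.7 in KD morulae and at 11.7 and 10.4 in NC and 10.7 and 3.22 in KD blastocysts, where its mean was below 10. Its groups overlapped at both stages.

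The upstream sequences of Id3 and Id2 are shown at the matches to SMAD-type motifs, because KD and NC blastocysts did not overlap for Id3 and did for Id2. The 250 bases before the RefSeq start (GRCm38.p6, the mm10 assembly) were searched on both strands for GGCGCC and GGAGCC, GC-rich sites of the kind SMAD1 and SMAD5 bind, and for CAGAC, the core of the SMAD4 site. Each stretch has 30 bases, written 5′ to 3′ along the gene with the matches in capitals, which do not overlap each other.
Id3, chr4:136143632-136143661, plus strand: cgaGGCTCCgctgtcctcggcgtCAGACca
Id3, chr4:136143741-136143770, plus strand: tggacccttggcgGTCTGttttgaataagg
Id2, chr12:25096306-25096335, minus strand: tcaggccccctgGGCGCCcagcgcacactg
Id2, chr12:25096163-25096192, minus strand: gtatgatggacgGGAGCCcttccaccaatg

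In Id3 the GGAGCC match (read as GGCTCC on this strand) began 187 bases before the start, and the CAGAC matches began 167 and 68 bases before it. In Id2 the GGCGCC match began 231 and the GGAGCC match 88 bases before the start. Over all 32851 upstream windows of this length, 9.59% held GGCGCC, 26.0% GGAGCC and 42.2% CAGAC, so such matches are common. Upstream sequences were matched for 7 of the 10 genes, and not for Bmp2, Bmp7 and Id1. GGCGCC was also found before Bmpr2, Bmpr1a and 1 of the 3 starts of Smad5, and GGAGCC before Bmp4 and another Smad5 start, which also had CAGAC. Smad1 had none of these letters in its window. GENCODE vM21 places the outermost starts of Id3 and Id2 further upstream, so the windows lie within the gene spans given above.

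Separation of the KD from the NC libraries was common among all genes. In morulae 2 of the 10 genes were higher and 2 lower without overlap, beside 20.7% and 21.2% of 13404 tested genes (41.9% in either direction). In blastocysts 2 were higher and 1 lower, beside 24.6% and 24.9% of 13651 (49.5% in either direction). Of the 10, 9 had a mean of at least 10 at each stage, Bmp4 being left out in morulae and Id1 in blastocysts. Since this contrast chose the genes, these counts carry no evidence about them.

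Levels were compared between genes as abundance per 1000000 units of the column sum and per kilobase of exon, with the tables of each stage normalized separately and no test made across them. In NC morulae the order from high to low was Id3, Bmpr1a, Id2, Bmpr2, Id1, Smad1, Smad5, Bmp2, Bmp7 and Bmp4, from 21.4 ± 12.2 (SD, n = 2) for Id3 and 12.2 ± 0.721 for Bmpr1a to 0.125 ± 0.0934 for Bmp4. Neighbours in this order had separate ranges except Bmp2 with Bmp7 and Bmp7 with Bmp4. In NC blastocysts the order was Id2, Id3, Bmpr1a, Bmp4, Bmpr2, Smad5, Smad1, Id1, Bmp2 and Bmp7, from 52.9 ± 2.61 for Id2 to 0.048 ± 0.00747 for Bmp7. There Bmp4 overlapped Bmpr2, and Bmp2 overlapped Bmp7. Per kilobase, Id2 in NC blastocysts was at the percentile 92.1 and Id3 at 77.4 of 13537 tested genes with an annotated length. With the longest transcript as the length, Smad1 stood above Id1 and Bmp7 above Bmp2 in morulae.

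**Figure D2:**
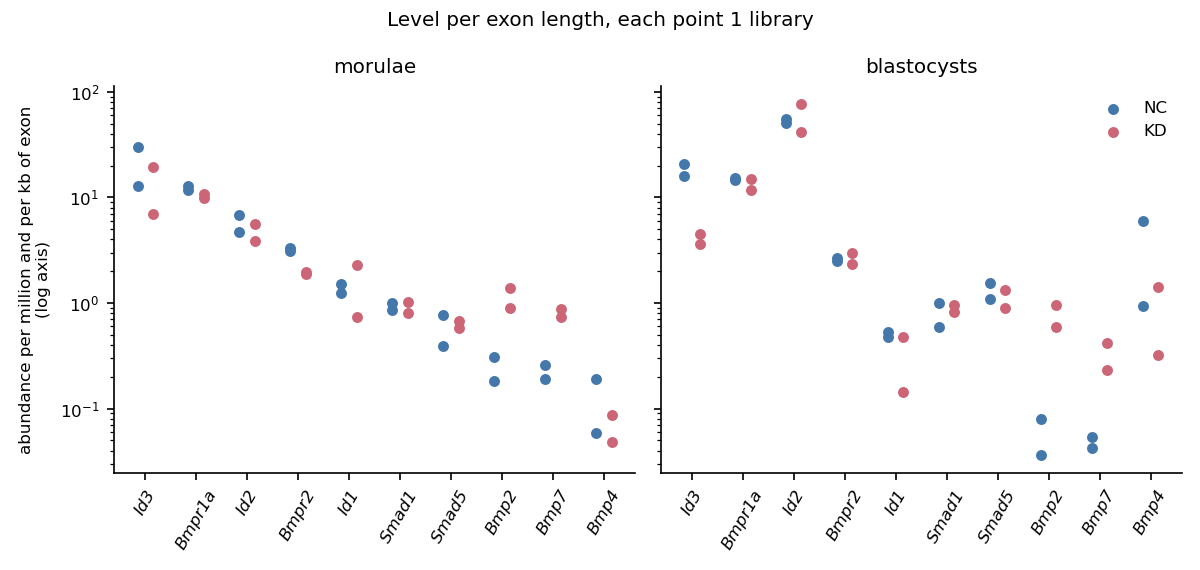
Abundance per 1000000 units of the column sum and per kilobase of exon (log axis) of each gene in each library, NC in blue and KD in red, in the order of NC morulae. Id2 leads in blastocysts, and Bmp2 and Bmp7 are lowest there in NC.

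Between the stages the NC levels, as a share of the column sum on the same scale but not per length, differed most for Id2 and the ligands. Id2 was 14.0 ± 3.59 (SD, n = 2) in NC morulae and 129 ± 6.36 in NC blastocysts, a ratio of 9.23. Bmp4 was 0.282 ± 0.210 and 7.83 ± 8.12, Bmp2 was 0.873 ± 0.324 and 0.207 ± 0.111, and Bmp7 was 0.902 ± 0.198 and 0.193 ± 0.0300. The NC ranges of the stages were separate for all genes but Smad1 and Id3. In KD embryos Id3 was 23.7 ± 15.9 in morulae and 7.26 ± 1.16 in blastocysts, and in NC it was 38.3 ± 21.9 and 32.8 ± 6.18. The morula libraries of Id3 were far apart in both groups. Bmp2 in KD was 4.05 ± 1.21 and 2.76 ± 0.940.

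The wider pathway was taken as a list of 72 further genes, of which 45 in morulae and 43 in blastocysts reached the minimum mean of 10. None passed limma at an adjusted p under 0.05 at either stage, where 0.00746% of all tested genes passed in morulae (1 gene, lower in KD) and 0.0879% in blastocysts (0.0366% higher and 0.0513% lower in KD). At an unadjusted p under 0.05, 5 were higher and 2 lower in KD morulae, and 8 higher and 2 lower in KD blastocysts, against 10.4% and 17.6% of all tested genes. The median log2 difference of the list was 0.25 in morulae and 0.10 in blastocysts, beside -0.01 and 0.00 over all tested genes. The test of the KD difference between stages passed none of 41 list genes (3 at an unadjusted p under 0.05) and 0 of 12875 genes in all (687 at an unadjusted p under 0.05).

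Of the other ligand genes, 7 of 8 tested were higher and 1 lower in KD morulae, and 2 of 5 were higher in KD blastocysts. Over all tested genes 49.2% were higher in morulae and 50.3% in blastocysts. Gdf5 was 0 and 24.7 in NC and 3.84 and 13.0 in KD morulae. Its KD mean was thus the lower, and it counts as higher on the log scale through the 0. Gdf7, at 4.68 and 7.18 in NC and 13.4 and 17.4 in KD morulae, reached the minimum mean of 10 only through KD. Bmp6 was 51.9 and 85.8 in NC and 96.2 and 162 in KD morulae (log2 difference 0.89, limma adjusted p = 0.545). In blastocysts it was 19.5 and 24.0 in NC and 114 and 83.9 in KD (2.13, SE 0.41, limma adjusted p = 0.0988), so its KD libraries were above NC at both stages, as for Bmp2 and Bmp7. Bmp8a was also above NC at both stages (0.82 and 1.08; adjusted p = 0.587 and 0.206), and its close paralog Bmp8b was not (-0.24 and -0.34). The sharing of reads between these similar copies was not tested, and their values are uncertain. Gdf9, an oocyte growth factor, was 27.4 and 26.4 in NC and 42.1 and 56.2 in KD morulae (adjusted p = 0.597).

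Antagonists such as noggin bind ligands and keep them from their receptors. The list of extracellular antagonists also held ligand-binding regulators that need not block signalling, such as Kcp and Twsg1. Of its genes, 6 of 7 tested were higher in KD morulae (median log2 difference 0.88). Kcp, at 9.06 and 1.56 in NC and 14.9 and 23.7 in KD morulae, reached the minimum mean of 10 only through KD. In KD blastocysts 5 of 7 were higher (0.26). Noggin (Nog) was 61.8 and 119 in NC and 171 and 177 in KD morulae, and 28.3 and 29.1 against 86.8 and 63.7 in blastocysts (1.01 and 1.34; limma adjusted p = 0.462 and 0.173). The groups were separate at both stages, and neither difference passed. Fstl3, which binds activins and some BMPs, was 700 and 561 in NC and 1685 and 1456 in KD blastocysts (1.32, SE 0.16, adjusted p = 0.0561). It was the list gene closest to the threshold, and without the filter on low values it passed (adjusted p = 0.0476). Nbl1 (0.94, adjusted p = 0.446) and Twsg1 (0.88, adjusted p = 0.481) were higher in KD morulae without passing, and Kcp was lower in KD blastocysts (-1.53, adjusted p = 0.288).

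**Figure D3:**
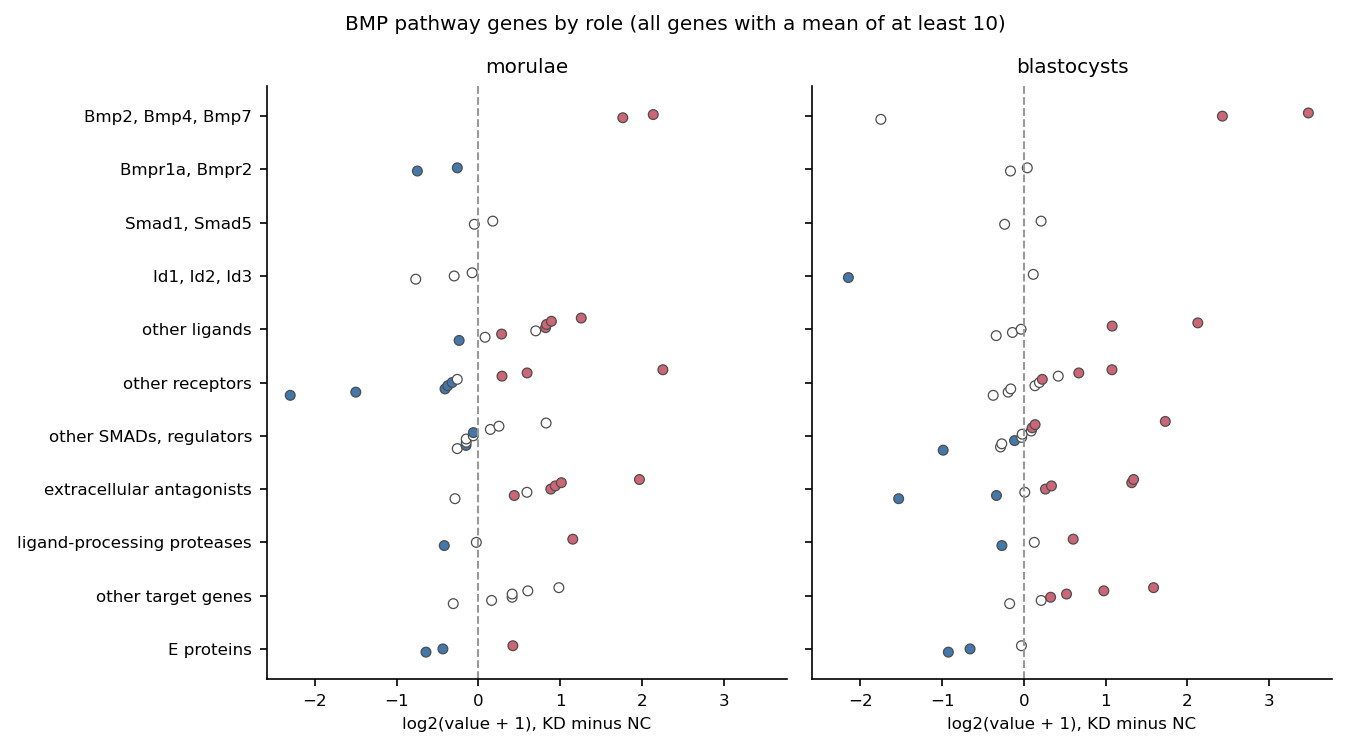
KD minus NC on the log2(value + 1) scale for each gene with a mean of at least 10, by role, in morulae and blastocysts. Red points have both KD libraries above NC, blue points both below, white points overlap, and the dashed line is the median of all tested genes. Among ligands, Bmp2, Bmp6, Bmp7 and Bmp8a are red at both stages.

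Other receptor and co-receptor genes had no common direction, with 3 of 9 higher in morulae and 6 of 9 in blastocysts. Acvrl1, the type I receptor ALK1, was 5.60 and 5.90 in NC and 20.7 and 46.7 in KD morulae (limma adjusted p = 0.415). Rgma, a BMP co-receptor, was 21.8 and 81.5 in NC against 12.9 and 4.55 in KD morulae (adjusted p = 0.458), and 138 and 131 against 187 and 247 in blastocysts (adjusted p = 0.244). The type II receptor gene Acvr2a was -0.41 in morulae (adjusted p = 0.567), and in blastocysts Tgfbr3 was 1.08 (adjusted p = 0.298) and Acvr1, the type I receptor ALK2, 0.42 (adjusted p = 0.572).

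Intracellular regulators lay on both sides of 0, with 3 of 9 higher in morulae and 4 of 10 in blastocysts and medians of -0.06 and -0.02. In morulae Ppm1a, a SMAD phosphatase, was 0.25 and the SMAD corepressors Ski and Skil -0.15 and -0.26 (lowest limma adjusted p = 0.667). In blastocysts Zfp423, a cofactor of BMP SMADs, was 14.7 and 7.98 in NC and 72.1 and 20.2 in KD (adjusted p = 0.295), and Smad9 was -0.99 and Skil -0.27 without passing. Among the proteases that process ligands, Pcsk6 was lower in both KD libraries at both stages (-0.42 and -0.27; adjusted p = 0.429 and 0.229), and Bmp1, a procollagen protease that cleaves the antagonist chordin, was higher at both (1.15 and 0.60; adjusted p = 0.477 and 0.464). Furin was -0.03 in morulae and 0.13 in blastocysts.

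Other genes known to respond to BMP did not follow Id3. Of 6 tested in blastocysts 5 were higher and 1 lower in KD (median log2 difference 0.42). Hand1 was 322 and 183 in NC and 1012 and 529 in KD (1.59, limma adjusted p = 0.124), Gata3 was 8790 and 8024 against 10401 and 10674 (0.33, adjusted p = 0.141), and Gata2 was 813 and 1388 against 1579 and 2776 (0.98, adjusted p = 0.201). These 3 are also trophectoderm factors. In morulae Gata3 (0.41), Msx2 (0.98) and Hand1 (0.60) overlapped between KD and NC. Of the E protein genes, Tcf12 was 486 and 526 in NC and 304 and 337 in KD blastocysts (-0.66, adjusted p = 0.142) and 265 and 284 against 187 and 219 in morulae (-0.44, adjusted p = 0.584). Tcf4 was also below NC at both stages (-0.64 and -0.92; adjusted p = 0.627 and 0.285), whereas Tcf3 was 0.42 in morulae (adjusted p = 0.501) and -0.03 in blastocysts.

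Lineage markers were measured beside these values. In KD blastocysts 10 of 11 epiblast markers were lower, 9 of them without overlap (median log2 difference -0.43), beside 24.9% lower without overlap over all tested genes. None passed limma. At an unadjusted p under 0.05, 6 were lower, beside 1192 lower of all 13651 tested genes, and 17.6% of all tested genes in either direction. Nanog (-0.0063) and Zfp42 (0.02) overlapped between KD and NC blastocysts, and Pou5f1 was -0.12. The summed abundance of the epiblast list was 43684 and 48006 in NC and 38604 and 40958 in KD. Pou5f1 was the largest part, at 21630 and 21609 in NC and 20001 and 19699 in KD. Utf1 (-0.56, adjusted p = 0.110) and Esrrb (-0.62, adjusted p = 0.143) had the smallest p. In morulae 8 of 11 were lower, with Klf4 at -1.28 (adjusted p = 0.305) and Utf1 at 0.44 (adjusted p = 0.403). Primitive endoderm markers were higher for 9 of 12 in blastocysts (median 0.35; Amn 1.95, limma adjusted p = 0.09999, and Gata4 1.19, adjusted p = 0.201). In morulae 8 of 11 were higher (median 0.18; Pdgfra 1.14, adjusted p = 0.362). Without overlap, 5 were higher in blastocysts and 6 in morulae, beside 24.6% and 20.7% of all tested genes. Gata6 (-0.15), Sox7 (-0.16) and Col4a2 (-0.04) were lower in KD blastocysts, and Pdgfra (0.12) and Sox17 (0.42) overlapped there. In morulae Sox17 was listed at 16.1 and 0 in NC against 186 and 72.7 in KD. It reached the minimum mean of 10 there only through KD. The summed abundance of this list was 32532 and 38177 in NC against 36813 and 44113 in KD blastocysts. These sums overlapped, and Gata6 and Dab2 were their largest parts. Trophectoderm markers were higher for 7 of 9 in blastocysts (Krt7 0.46 and Krt18 0.29) and lower for 6 of 10 in morulae (Krt18 -0.43 and Krt8 -0.36). The part of these differences in the ligand and Id3 values was not tested.

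**Figure D4:**
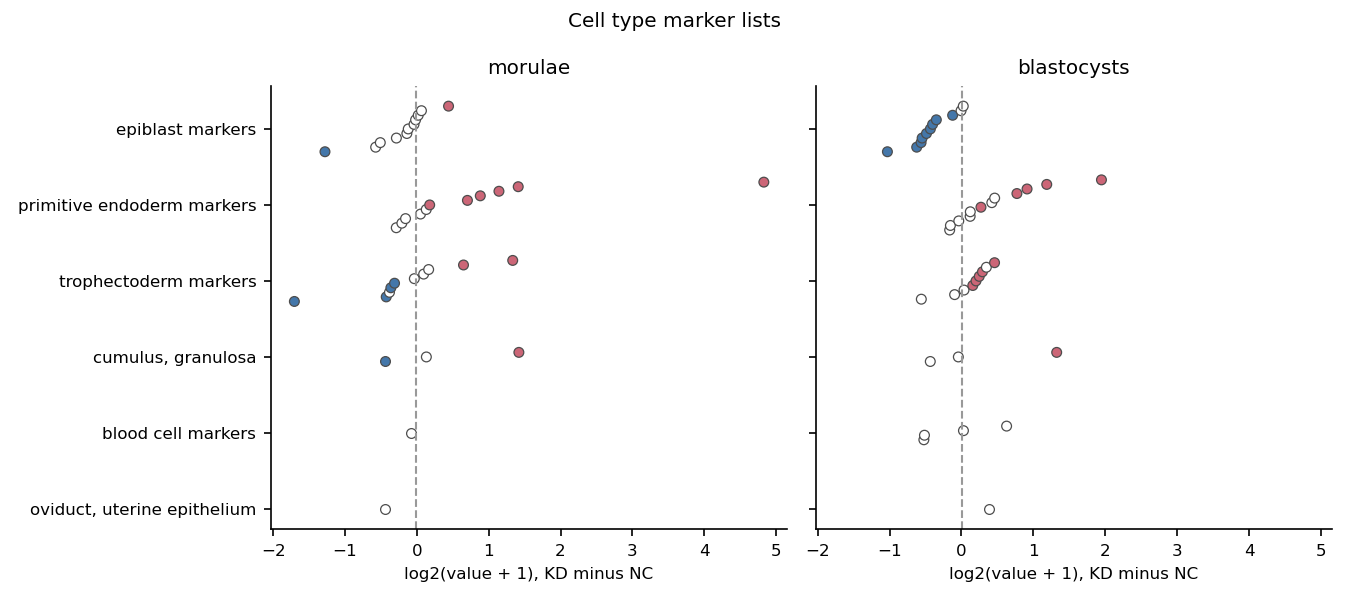
KD minus NC on the log2(value + 1) scale for cell type markers with a mean of at least 10, coloured as in the plot by role. Epiblast markers lie mostly below the dashed median of all genes in blastocysts, and primitive endoderm markers mostly above it.

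Most markers of cells outside the embryo were absent or below a mean of 10 at each stage. Of 11 cumulus and granulosa markers, 6 were in neither table, among them Fshr and Cyp19a1, and Inha was at 0 in 3 of 4 morula libraries. Foxl2 was 38.9 and 28.9 in NC and 109 and 77.1 in KD morulae (1.42, limma adjusted p = 0.402), and 16.3 and 25.1 against 63.9 and 42.6 in blastocysts (1.32, adjusted p = 0.240), so it had the order of Bmp2 and Bmp7; its part was not tested. Amhr2 was 279 and 325 in NC against 203.5 and 243 in KD morulae (-0.44). In blastocysts it was 158 and 85.1 against 101 and 72.5 (-0.43). Star was 30.3 to 39.3 over all 8 libraries. Amh was 1.85 and 1.03 in NC against 6.74 and 8.72 in KD morulae, without overlap. In blastocysts the Amh groups overlapped, and its mean stayed below 10 at both stages. The summed abundance of the cumulus and granulosa list was 353 and 386 in NC against 349 and 368 in KD morulae. In blastocysts it was 221 and 152 against 211 and 153. Amhr2 was the largest part of each sum and differed in the opposite direction to Foxl2, so the sums do not describe the single markers. Of the blood list, Cd68 was -0.09 in morulae and 0.63 in blastocysts, Hba-a2, which has a near-identical copy, was -0.52 in blastocysts, and Hbb-bs was 82.9 and 40.0 in the NC and KD blastocyst libraries numbered 2 and 0 in those numbered 1. The blood list summed to 622 and 1070 in NC and 555 and 1063 in KD morulae. In blastocysts it summed to 905 and 473 against 983 and 739. Most of each sum came from Cd68, at 609 and 1056 in NC and 543 and 1052 in KD morulae. In blastocysts Cd68 was 896 and 292 against 972 and 644. Ovgp1, an oviduct product, was 9.81 to 20.0 in morulae and 7.21 to 16.1 in blastocysts, and that list summed to at most 23.1 in any library.

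The genes with the profiles nearest to Id3, Bmp2 and Bmp7 were found by the root-mean-square difference of log2 values, centred within each stage, over the 8 libraries and 12164 protein-coding genes. Nearest to Id3 were Ifngr2, a subunit of the interferon gamma receptor (difference 0.350), Pir (0.383) and Slc26a5 (0.383), beside a median of 0.980 over all genes. Ifngr2 was 301 and 300 in NC and 100 and 114 in KD blastocysts. Nearest to Bmp2 were Gm1140 (0.309), Sardh, the sarcosine dehydrogenase (0.491), and Celf3 (0.559), with a median of 1.51. Nearest to Bmp7 were Avil, the actin-binding protein advillin (0.169), Smtnl1 (0.201) and Ltb, lymphotoxin beta (0.259), with a median of 1.12. Avil was 64.7 and 74.9 in NC and 191 and 187 in KD morulae. Genes picked as nearest lie below the median by the way they were picked, so these distances carry no evidence. Some rest on few reads in NC blastocysts. There Gm1140 was 2.65 and 1.61, Sardh 2.46 and 0.627, Smtnl1 4.05 and 4.05, and Ltb 4.20 and 3.50.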

How the data were processed

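The tables the authors deposited hold a normalized abundance signal per gene, 1 table per stage with 4 libraries each. Per the submitters' processing notes, Salmon 0.14.1, DESeq2 and the mm10 build were used; their roles are not given in the sources used here. Column sums were nearly equal within a table. Groups and replicate numbers came from the titles, and no label says that libraries came from separate litters: a p-value here reflects library-to-library spread alone, possibly of technical origin. Of the gene IDs, 98.9% matched a symbol; coordinates and exon lengths came from GENCODE vM21 (mm10). Depth was estimated from genes found in a single library, 95.0% to 100% of whose values lay on whole steps (tolerance 0.01).

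For genes with a mean of at least 10, KD minus NC was fitted on log2(value + 1), separately in each table, by limma (version 3.58.1, under R 4.3.3) with a mean-variance trend, without the replicate number, with Benjamini-Hochberg adjustment over all tested genes and a threshold of 0.05. Differences on this scale understate changes of low genes. An exact two-sided permutation test of 2 against 2 cannot go below p = 0.333, so none was run. The genes and lists were chosen with earlier results of these data known. Genes named are the 10, up to 3 genes per role and 2 per marker list and stage by smallest p, and the 3 nearest profiles. Bmp8b in morulae, Fshr, Cyp19a1, Inha, Star, Amh and Hbb-bs were named after their values were seen. So were Gdf5, Gdf7, Smad7, Crim1, Gata6, Sox7, Col4a2, Dab2, Nanog, Zfp42 and Pou5f1. The same holds for the values of Kcp, Tgfbr3, Ski, Krt8, Pdgfra and Sox17 at the stage where the rule did not name them. Alternatives were other pseudocounts, filters and scalings, no trend, a replicate block and leaving out each library.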

Additional observations from a re-analysis of the deposited data

Results flagged for a closer look

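The 10 genes, the wider BMP list and the marker lists held 85 genes tested at both stages. Of these, 9 had both KD libraries above NC at one stage and below NC at the other. None of these differences between stages passed limma's test of the difference itself. Separation was common over all tested genes: 20.7% were higher and 21.2% lower in morulae, and 24.6% and 24.9% in blastocysts. The share of all genes with opposite directions was not counted, so the 9 carry no evidence about these lists. Rgma had a log2 difference of -2.30 in morulae and 0.67 in blastocysts (adjusted p = 0.838). Tgfbr3 had -1.50 and 1.08 (adjusted p = 0.905). Ski had -0.15 and 0.10 (adjusted p = 0.921). Kcp had 1.97 and -1.53 (adjusted p = 0.838). Utf1 had 0.44 and -0.56 (adjusted p = 0.579). Krt18 had -0.43 and 0.29 (adjusted p = 0.674). Krt8 had -0.36 and 0.25 (adjusted p = 0.834). Smad7, an inhibitory SMAD, had -0.063 and 0.14 (adjusted p = 0.929). Crim1, a transmembrane BMP antagonist, had 0.44 and -0.33 (adjusted p = 0.929). None of the 10 genes chosen for description was among them.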

How the results depend on the processing

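With the replicate number as a block, 892 genes passed in morulae (1 without it) and 1208 in blastocysts (12 without it). Of the wider BMP list, 3 then passed in morulae (Fstl3, Gata3 and Hand1, all higher in KD) and 6 in blastocysts (Fstl3, Hand1, Gata2, Gata3 and Bmp6 higher, Tcf12 lower), and 0 in the difference between stages. Of the markers named by smallest p, Klf4, Utf1, Pdgfra, Sox17, Krt18, Krt8 and Foxl2 in morulae also passed with the block and not without it. So did Utf1, Esrrb, Amn, Gata4 and Krt18 in blastocysts. These markers had been picked by their p in the same data, so their passing carries no further evidence. With 4 libraries per table, the block leaves each gene very little information on its own spread. Calls with the block therefore lean on the spread shared across genes. The labels do not say that the number pairs libraries. Across genes the deviations of same-numbered libraries correlated at 0.297 in morulae and 0.146 in blastocysts. Without the mean-variance trend 0 genes passed at either stage. Without a filter 27 genes passed in blastocysts, with 1 of the list, Fstl3. Leaving out single libraries gave 1 to 3 genes in blastocysts, and it changed the count of the 10 genes without overlap to between 6 and 8 in morulae (4 with all libraries) and between 5 and 8 in blastocysts (3 with all), since an arm of 1 library overlaps less easily. Signs reversed for Furin in morulae after quantile normalization (0.00669) and when single libraries were left out for Furin (-0.15 to 0.10 in morulae, -0.076 to 0.33 in blastocysts), Hand1 in morulae (-0.094 to 1.30), Tcf3 (-0.12 to 0.057), Amhr2 (-0.88 to 0.0086), Hba-a2 (-1.66 to 0.61) and Ovgp1 (-0.12 to 0.88) in blastocysts, and Cd68 (-0.56 to 0.39 in morulae, -0.18 to 1.44 in blastocysts). Among the 10 genes the sign also depended on the library left out for Bmp4 (-1.25 to 0.07), Id1 (-0.89 to 0.73), Smad1 (-0.24 to 0.14) and Smad5 (-0.28 to 0.63) in morulae, and for Bmpr1a (-0.34 to 0.01), Bmpr2 (-0.12 to 0.21), Id2 (-0.33 to 0.56), Smad1 (-0.16 to 0.58) and Smad5 (-0.52 to 0.05) in blastocysts. Adding 10 before logs moved Bmp7 in morulae to 1.35. Values under about 10 rest on few reads, which limits Bmp2, Bmp7, Bmp4 and Id1. The same limit holds for other genes, among them Acvrl1, Gdf5, Gdf7, Kcp and Sox17 in morulae.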
